A study of Mus musculus with 146 samples.

Results

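The comparison described here set the amygdala (AMY) against the prefrontal cortex (PFC) within the same Air mice, the control arm of a study of chronic intermittent ethanol (CIE) vapor. Members were the libraries of Air mice that had both punches, paired by mouse number, which gave 36 libraries from 18 mice (10 males and 8 females) of 37 Air libraries of these regions and 146 libraries in the series. All animals were C57BL/6J mice labelled non_dependent that breathed air in the inhalation chambers, received pyrazole (68.1 mg/kg, an inhibitor of alcohol dehydrogenase) in saline as the CIE mice did, and drank 15% ethanol voluntarily in 2-h sessions on 5 days a week for 4 weeks and again after each of 4 exposure cycles. They were therefore not ethanol-naive, and their tissue was taken 1 week after a last exposure of 4 days. RNA came from brain micropunches, small cores cut from frozen tissue that can carry neighbouring structures, and was sequenced by TagSeq, which reads the 3′ ends of transcripts. In such bulk tissue fewer cells of a type and less RNA per cell cannot be told apart.

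The prefrontal cortex derives from the pallium, and most of its neurons are glutamatergic projection cells arranged in layers and made under cortical transcription factors such as Tbr1, Emx1 and Fezf2. The amygdala is mixed. Its basolateral nuclei are pallial and cortex-like, whereas the central, medial and intercalated groups come from the subpallium, consist mainly of GABA neurons and express many neuropeptides. The central nucleus lies against the caudal striatum and the globus pallidus, both of which are crossed by the internal capsule, and close to the lateral ventricle, so striatal, pallidal, white matter and choroid plexus transcripts are natural ones to look for in an amygdala punch. A frontal punch borders the olfactory bulb and the meninges.

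Assigned reads ranged from 1578896 to 3556545 per AMY library and from 2014647 to 3861281 per PFC library, and 18294 to 20847 genes had at least 1 read. Sex-linked genes matched the labels in all 36 libraries, since Xist had 349 to 1187 reads in female and 1 to 11 in male libraries. Ddx3y, a Y-linked gene, had 181 to 383 reads in males but also 0 to 13 in females; where these few reads come from was not tested. The PFC libraries of mice 15 (male) and 40 (female) stood apart by olfactory bulb genes, and counts are therefore also given without these mice. Nothing in the labels says how the punches were placed or in which order animals were dissected.

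The regions differed in a large share of the transcriptome. Of 12531 genes tested, 2874 (22.9%) were called higher and 2958 (23.6%) lower in AMY (46.5% in all) at an adjusted p under 0.05 (edgeR quasi-likelihood test with the mouse as block), and the median log2 fold change of all genes was 0.0023. The balance of directions depended on the scaling, with 3339 higher and 2608 lower under library size alone and 3259 higher and 2679 lower under upper-quartile scaling. Most of these differences were small: 368 genes (2.94%) were at least 2-fold higher and 291 (2.32%) at least 2-fold lower. The ranges of the 18 AMY and the 18 PFC libraries did not overlap for 355 genes (2.83%), 190 of them higher in AMY (1.52%) and 165 lower (1.32%). Without mice 15 and 40 the count of called genes rose from 5832 to 6301. Counts of list members given below are to be read against the 22.9% and 23.6% of all genes called higher and lower.

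Lhx8 and Six3, developmental transcription factors, had the largest differences toward AMY of the genes named for size. Lhx8, a LIM-homeodomain factor of cholinergic and other basal forebrain neurons (chr3:154306294-154330659, GRCm38), had a lowest, median and highest level of 2.46, 16.3 and 25.7 CPM (reads of a gene scaled to a common library size) in AMY and of 0, 0.401 and 0.957 CPM in PFC, a log2 fold change of 5.32 ± 0.23 (SE, edgeR adjusted p = 4.24e-14). Six3, a homeodomain factor of the ventral forebrain that is needed for striatopallidal neurons (chr17:85613608-85629302), ranged from 36.9 to 156 CPM in AMY (median 97.0) and from 0.485 to 5.73 CPM in PFC (median 3.14), with a log2 fold change of 4.90 ± 0.15 (SE, edgeR adjusted p = 1.11e-16). Isl1, which marks striatonigral, cholinergic and central amygdala lineages, was at 7.69 to 30.9 CPM in AMY and at most 3.26 CPM in PFC (log2 fold change 3.96). For these 3 genes every AMY library was above every PFC library. Six3os1, the antisense transcript that overlaps the Six3 locus, moved with Six3 (log2 fold change 4.64), and because the strand setting of the authors' counting is not given in the sources used here, reads of the pair may not be fully separated.

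The other genes named for size toward AMY have varied functions. Nts, the precursor of neurotensin, had 28.2 to 98.9 CPM in AMY (median 67.2) and 0 to 4.72 CPM in PFC (median 1.93), a log2 fold change of 4.85 ± 0.18 (SE, edgeR adjusted p = 9.90e-15). Slc10a4, a vesicular transporter of cholinergic and monoaminergic neurons, and Chat, which makes acetylcholine, had log2 fold changes of 4.72 and 4.58. Gpr101, an orphan receptor, Ecel1, an endopeptidase-like protein, Tacr3, the neurokinin B receptor, and Arhgap36 were 3.72 to 4.20 higher on the log2 scale with no overlap between the regions. Drd2, the D2 dopamine receptor, was higher in AMY in all 18 mice (log2 fold change 3.93), yet its regional ranges overlapped, at 3.32 to 56.7 CPM in AMY and 0 to 5.33 CPM in PFC.

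**Figure D1:**
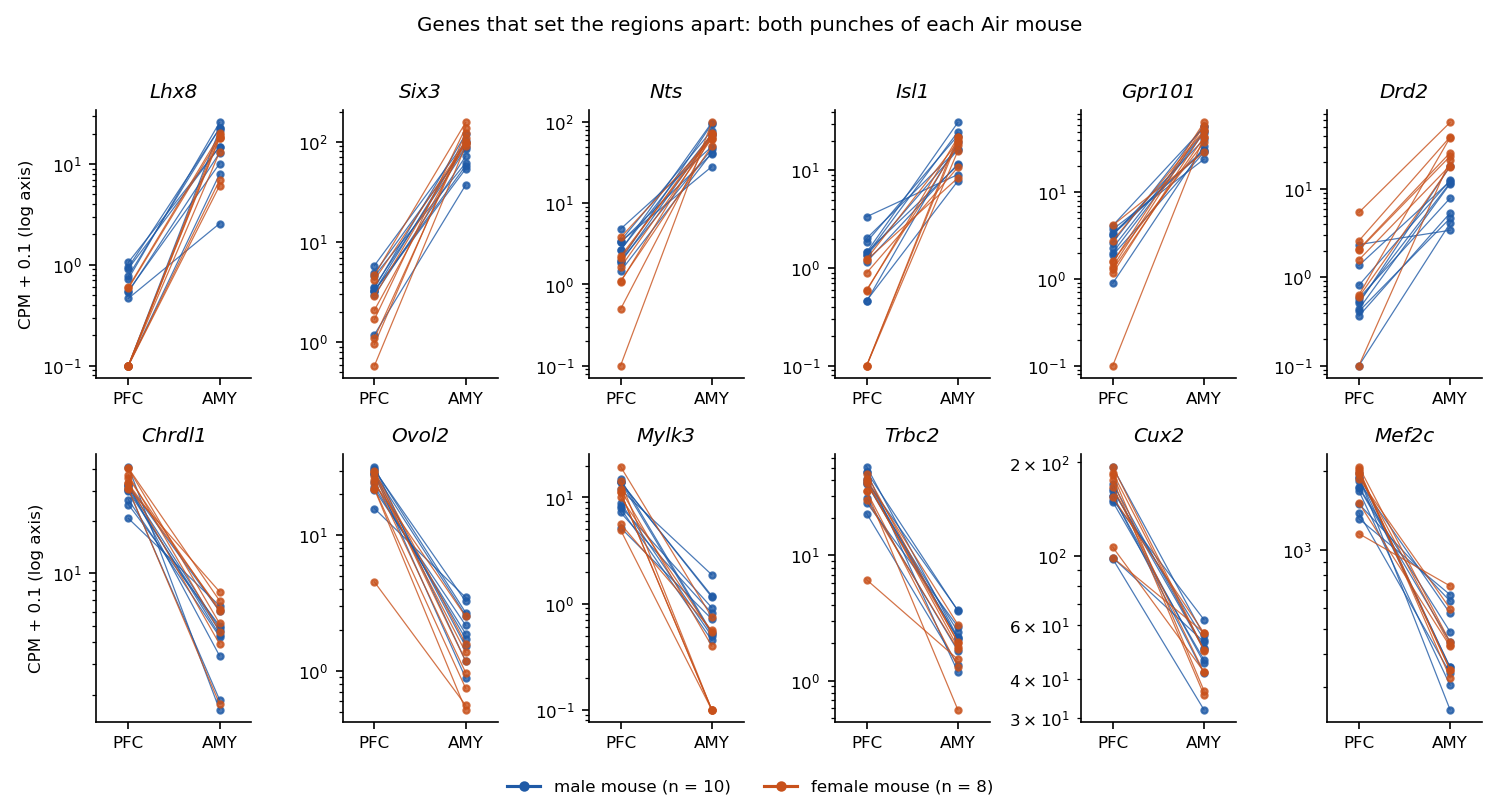
Levels in CPM plus 0.1 on a log axis in both punches of each Air mouse, with a line joining the PFC and AMY libraries of a mouse (10 males in blue, 8 females in orange). Lhx8, Six3, Nts, Isl1, Gpr101 and Drd2 rose from PFC to AMY in all 18 mice, and Chrdl1, Ovol2, Mylk3, Trbc2, Cux2 and Mef2c fell in all 18.

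Genes lower in AMY by the largest folds came from several functions. Ovol2, a zinc-finger factor (chr2:144305175-144332146), ranged from 4.43 to 32.0 CPM in PFC (median 26.2) and from 0.418 to 3.39 CPM in AMY (median 1.45; log2 fold change -3.86). Trbc2, a T cell receptor beta constant gene, had 6.28 to 51.1 CPM in PFC (median 37.7) and 0.484 to 3.54 CPM in AMY (median 1.92), a log2 fold change of -4.13 ± 0.12 (SE, edgeR adjusted p = 1.11e-16). The regions did not overlap for either gene, and the lowest PFC value of each was that of mouse 40. The uncharacterised transcripts 9130024F11Rik, A830009L08Rik and Gm11549 were lower by 4.09, 3.48 and 3.25 on the log2 scale. Mylk3, a myosin light chain kinase known from heart, Slc22a6, an organic anion transporter, Pparg, a nuclear receptor, Smoc2, Trabd2b and Chrdl1, a BMP antagonist, were also among the 12 genes named for size, with log2 fold changes from -4.10 to -2.80.

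Across the pallial list, 15 of 17 transcription factors tested were called lower in AMY and 1 was called higher, and the median log2 fold change was -1.46. Mef2c, which promotes cortical neuron differentiation, had 1150.5 to 2071 CPM in PFC and 246 to 728 CPM in AMY, a log2 fold change of -2.01 with no overlap. Emx1, a marker of the dorsal pallium, and Tbr1, of deep-layer and amygdalar glutamatergic neurons, had log2 fold changes of -1.77 and -1.63. Foxo1, a forkhead factor of insulin signalling, was the 1 called higher (0.41). Among 23 subpallial factors 13 were called higher and 3 lower (median 0.96). Nkx2-1, which specifies pallidal progenitors, was higher by 3.78, Nr2f2, of caudal ganglionic eminence and amygdala, by 2.56, and Foxp2, of striatal and intercalated neurons, by 1.56 on the log2 scale. Zic2 (-1.23) and Dlx1 (-0.69) were among the 3 called lower. The largest Dlx1 values, 236, 133 and 93.1 CPM, were those of the PFC libraries of mice 40, 15 and 37, which also had the highest olfactory bulb list sums. Without mice 15 and 40 the counts were 15 higher and 2 lower.

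GABA synthesis genes were higher and most glutamatergic genes lower in AMY. Gad2, which makes GABA, had a lowest, median and highest level of 505, 780 and 982 CPM in AMY and 167, 208 and 563 CPM in PFC (log2 fold change 1.65 ± 0.15, SE, edgeR adjusted p = 4.79e-09). Slc32a1, the vesicular GABA transporter, differed as much (1.65), and Gad1 by 0.87. Slc17a7, the vesicular glutamate transporter of cortical neurons, ran the other way, with 72.8 to 465 CPM in AMY (median 203) and 238 to 608 CPM in PFC (median 546; log2 fold change -1.40), whereas Slc17a6, its counterpart in subcortical glutamatergic neurons, was higher in AMY in all 18 mice (log2 fold change 1.77) with no overlap. The GABA genes were above the PFC of the same mouse in 15 (Gad1), 17 (Gad2) and 16 (Slc32a1) of 18 mice. Of 20 excitatory neuron genes 18 were called lower and 1, Slc17a6, higher in AMY (median -1.17). The 26 genes of the inhibitory list did not move as a block. Against 22.9% and 23.6% of all genes, 13 were called higher (50%) and 8 lower (30.8%), with a median of 0.20. Those lower included Vip, the peptide of a class of cortical interneurons, at 10.4 to 36.3 CPM in AMY and 53.2 to 115 CPM in PFC (log2 fold change -2.22), Cck, the cholecystokinin precursor (-1.42), and Ndnf, of neurogliaform cells (-1.27).

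Many genes of the neuropeptide list differed between the regions. Beside peptide precursors the list holds Igfbp5, Cbln1, Cbln2, Cbln4 and Nxph4. Of 29 tested, 15 were called higher (51.7%) and 7 lower (24.1%) in AMY, and the median log2 fold change was 0.65. Of all genes 22.9% were called higher and 23.6% lower, so the lower share was close to that of all genes. The promoters of 3 list members that were higher in AMY, Sst (somatostatin), Scg2 (secretogranin II) and Cartpt (CART peptide), are shown. They hold the palindromic cAMP response element TGACGTCA, in capitals. They are the 250 bases before the RefSeq transcription start on the minus strand of GRCm38.p6, at chr16:23890845-23891094, chr1:79440027-79440276 and chr13:99900684-99900933, and the element begins 48, 68 and 112 bases before the start. It was found in 3 of the 21 tested genes of the neuropeptide list that had a promoter entry. Among tested genes with a promoter it was in 11 of 286 at least 2-fold higher and 4 of 211 at least 2-fold lower in AMY. Over all tested genes with a promoter it was in 355 of 9505 (3.73%), and in 2.03% of all 27025 genes with a promoter. Windows of 300 bases were used. The share among the genes higher in AMY was thus close to that of all tested genes. A match of letters is not evidence of binding.
Sst: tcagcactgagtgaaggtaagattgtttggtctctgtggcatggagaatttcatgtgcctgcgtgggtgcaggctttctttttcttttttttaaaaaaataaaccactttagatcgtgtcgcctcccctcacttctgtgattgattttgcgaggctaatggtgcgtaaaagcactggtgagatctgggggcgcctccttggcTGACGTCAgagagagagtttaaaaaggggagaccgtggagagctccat
Scg2: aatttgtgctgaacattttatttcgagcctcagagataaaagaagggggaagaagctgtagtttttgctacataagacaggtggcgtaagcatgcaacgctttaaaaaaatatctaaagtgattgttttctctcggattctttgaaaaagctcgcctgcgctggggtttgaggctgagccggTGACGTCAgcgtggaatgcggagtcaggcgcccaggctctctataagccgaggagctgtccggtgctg
Cartpt: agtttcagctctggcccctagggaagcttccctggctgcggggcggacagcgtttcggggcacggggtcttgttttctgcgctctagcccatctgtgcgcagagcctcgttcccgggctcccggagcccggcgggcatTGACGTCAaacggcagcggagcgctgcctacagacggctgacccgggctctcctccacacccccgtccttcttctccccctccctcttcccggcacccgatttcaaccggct

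Sst had a lowest, median and highest level of 571, 814 and 966 CPM in AMY and of 120, 464 and 556 CPM in PFC, so that every AMY library exceeded every PFC library (log2 fold change 0.86 ± 0.13, SE, edgeR adjusted p = 6.86e-06). Cartpt did not overlap either, at 18.4 to 58.6 CPM against 4.19 to 17.9 CPM (log2 fold change 1.66). Scg2 was higher by 1.29, with overlapping ranges and 16 of 18 mice in that direction.

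Opioid and tachykinin precursors were among the peptides with the widest spread between amygdala punches. Penk, the enkephalin precursor, had 275, 886 and 1750 CPM as its lowest, median and highest AMY level and 36.3, 59.7 and 383 CPM in PFC (log2 fold change 3.44 ± 0.26, SE, edgeR adjusted p = 3.12e-10). Tac1, which encodes substance P, ranged from 25.5 to 190 CPM in AMY (median 86.6) and from 4.80 to 25.1 CPM in PFC (median 16.3; log2 fold change 2.35). Pdyn, the dynorphin precursor, differed by 1.82. All 18 mice had more of each in AMY, but the AMY libraries of a single region differed several-fold among themselves. Pnoc, the nociceptin precursor, Tac2, which encodes neurokinin B, and Crh, corticotropin-releasing hormone, were higher by 1.29, 2.00 and 0.92. The peptides lower in AMY were led by Vip, Adcyap1, which encodes PACAP (-1.88), Grp, gastrin-releasing peptide (-1.498), and Cck.

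Receptors for these peptides, in a list that also holds the binding protein gene Crhbp, went both ways. Of 25 tested, 13 were called higher (52%) and 7 lower (28%), with a median of 0.46. The shares of all genes were 22.9% and 23.6%, so the lower share was near that of all genes. Npy2r, a presynaptic receptor of neuropeptide Y, had 17.9 to 50.2 CPM in AMY (median 28.8) and 0.854 to 6.12 CPM in PFC (median 4.26; log2 fold change 2.92 ± 0.15, SE, edgeR adjusted p = 5.27e-13). Oprk1, the kappa opioid receptor, and Oprm1, the mu opioid receptor, were higher in AMY by 2.65 and 1.63, and Oxtr, the oxytocin receptor, by 1.28. On the cortical side Cckbr, the brain cholecystokinin receptor, had 82.8 to 148 CPM in PFC against 16.3 to 49.2 CPM in AMY (log2 fold change -1.85), and Crhr1, the main receptor of corticotropin-releasing hormone, had 28.5 to 76.5 against 10.2 to 21.3 CPM (-1.24). Neither overlapped. Crhr1 was therefore lower where its ligand Crh was higher, and Cck and Cckbr were both lower in AMY.

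Markers of the central and intercalated amygdala were mostly higher in AMY, though the list shares Scn4b, Foxp2 and Isl1 with the striatal or other lists, Prkcd with the thalamic list and Cyp26b1 with the basolateral list. Of 17 members tested 14 were called higher and 2 lower in AMY (median 1.56), Tshz1 being the 1 not called (0.44). Prkcd, of a class of central lateral neurons, had 11.2 to 39.4 CPM in AMY (median 25.0) and 5.31 to 12.2 CPM in PFC (median 8.07; log2 fold change 1.47 ± 0.14, SE, edgeR adjusted p = 1.13e-08), overlapping slightly. Cyp26b1, an enzyme that breaks down retinoic acid, had 12.7 to 90.1 CPM in AMY and 1.14 to 7.83 CPM in PFC (log2 fold change 3.56) with no overlap. The lower members were Rspo3 (-1.44) and Ezr (-0.32). The 18 basolateral markers divided into 8 higher (44.4%) and 6 lower (33.3%, median 0.19), where 22.9% of all genes were called higher and 23.6% lower. Lypd1 and Lmo3 were higher by 1.26 and 1.39 with no overlap, whereas Slc30a3, the synaptic zinc transporter, and Grp were lower, at log2 fold changes of -1.32 and -1.498. Of 18 medial amygdala genes and hormone receptors only 8 were tested, and Cyp19a1, Esr2 and Sim1 were among those that were not. Of the 8 tested, 6 were called higher and none lower. The 3 that were at least 2-fold higher are each shared with another list. These are Gal, the galanin precursor (1.91), with the hypothalamic list, Ecel1 with the pallidal list and Foxp2 with the central list.

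Striatal markers were higher in the amygdala punches and varied widely among them. All 8 tested members of the striatal defining list were called higher in AMY (median log2 fold change 2.56), as were 23 of 24 in the longer list of striatal projection neuron genes (median 1.88). Summed over the 8 genes, the level ranged from 159.6 to 1453 CPM in AMY (median 530.2) and from 72.0 to 151 CPM in PFC (median 101), so that the regions did not overlap but the AMY libraries spanned a wide range. Drd1, the D1 dopamine receptor, had 17.4, 69.6 and 165 CPM as its lowest, median and highest level in AMY and 4.96, 12.5 and 25.6 CPM in PFC (log2 fold change 2.39). The PFC maximum of Drd1 exceeded the AMY minimum. Lrrc10b (3.36), Gpr6 (3.31), Syndig1l (2.72), Rgs9 (2.16) and Rxrg (1.94) were also in the list, with Drd2. The other 3 members of the list did not pass the count filter. Some central and intercalated amygdala neurons also express genes of this list, and in these bulk libraries they and striatal tissue cannot be told apart.

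The spread of the striatal list showed which regional genes varied with it from punch to punch. Of the genes given here Tac1, Penk, Scn4b and Pdyn belong to the longer list of striatal projection neuron genes. Gabrd and Six3 do not. Over the 18 AMY libraries, 164 relations with the list (135 named genes and 29 lists) were computed, and 11 genes and 2 lists passed an adjusted p under 0.05 by Pearson r. The 8 defining genes were taken out of every other list before its mean was taken. Of the 11 genes, 8 had a positive and 3 a negative r. Dlx1 fell as the list rose, with an r of -0.65 (permutation adjusted p = 0.0498) and a rho of -0.55 (0.177, not called). Without mice 12 and 8 its r was -0.53 and no longer called (permutation adjusted p = 0.196). Tac1 rose with the list, with a Pearson r of 0.96 and a Spearman rho of 0.97, and Penk with 0.93 and 0.91. Scn4b, a sodium channel subunit of striatal neurons, had 0.94 and 0.95, and Gabrd, the delta subunit of extrasynaptic GABA-A receptors, 0.93 and 0.94. For these 4 genes each r and rho had a permutation p of 1e-05, the smallest that 100000 resamples can give (adjusted p = 3.28e-04). Without mice 12 and 8, the farthest from the median of the list, these r values were 0.95, 0.91, 0.94 and 0.92. Within the 10 males they were 0.92, 0.91, 0.85 and 0.86 and within the 8 females 0.92, 0.84, 0.99 and 0.93 (10 and 8 libraries), and by r 2 of the 135 genes were called within males and 4 within females, where exact tests were used. Scn4b and Gabrd missed the threshold within males (permutation adjusted p = 0.0551 and 0.0541) and Penk within females (exact adjusted p = 0.140), and by rho none of the 4 passed within females. Pdyn had an r of 0.78 and a rho of 0.73 (permutation p = 0.00015 and 0.00101, adjusted p = 0.0041 and 0.0207) and Six3 an r of 0.71 and a rho of 0.68 (permutation p = 8.30e-04 and 0.00269, adjusted p = 0.0136 and 0.0401). Without those mice r was 0.64 for Pdyn, which was no longer called (permutation adjusted p = 0.0821), and 0.77 for Six3, whose rho then had a permutation adjusted p of 0.0623. Within the 10 males Six3 had an r of 0.39 and within the 8 females 0.80, and it was called in neither sex.

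Several other genes with large regional differences had no called relation with the striatal list. Nts had an r of -0.011 and a rho of -0.001 (permutation p = 0.965 and 1, adjusted p = 0.977 and 1), Lhx8 an r of 0.17 and a rho of -0.09 (permutation p = 0.514 and 0.723, adjusted p = 0.768 and 0.898), and Prkcd an r of 0.37 and a rho of 0.27 (permutation p = 0.133 and 0.278, adjusted p = 0.416 and 0.617). Chat had 0.18 and -0.11 (permutation p = 0.481 and 0.663, adjusted p = 0.768 and 0.870) and Cyp26b1 0.076 and 0.16 (permutation p = 0.765 and 0.530, adjusted p = 0.898 and 0.770). Within males and within females r was -0.27 and -0.58 for Nts, 0.17 and 0.33 for Lhx8, and 0.36 and 0.54 for Prkcd. For Chat it was 0.13 and 0.39 and for Cyp26b1 -0.0098 and -0.68, and none of these was called. With 18 libraries, and fewer within a sex, a weak relation of these genes would not have been detectable. Grin3a, a glycine-binding NMDA receptor subunit, and Npy2r fell as the striatal list rose, with r of -0.76 and -0.66 and rho of -0.69 and -0.68 (permutation p = 2.30e-04 and 0.00326 for r, 0.00197 and 0.00254 for rho, adjusted p = 0.00437 and 0.0446 for r, 0.0359 and 0.0401 for rho). Within males and within females r was -0.77 and -0.93 for Grin3a (not called within males, permutation adjusted p = 0.211) but -0.34 and -0.14 for Npy2r. The relation of Npy2r thus did not hold within the sexes. Without mice 12 and 8 r was -0.70 for Grin3a and -0.54 for Npy2r. Grin3a then lost its call by rho (permutation adjusted p = 0.241). Npy2r lost its call by both r and rho (permutation adjusted p = 0.196 and 0.239).

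**Figure D2:**
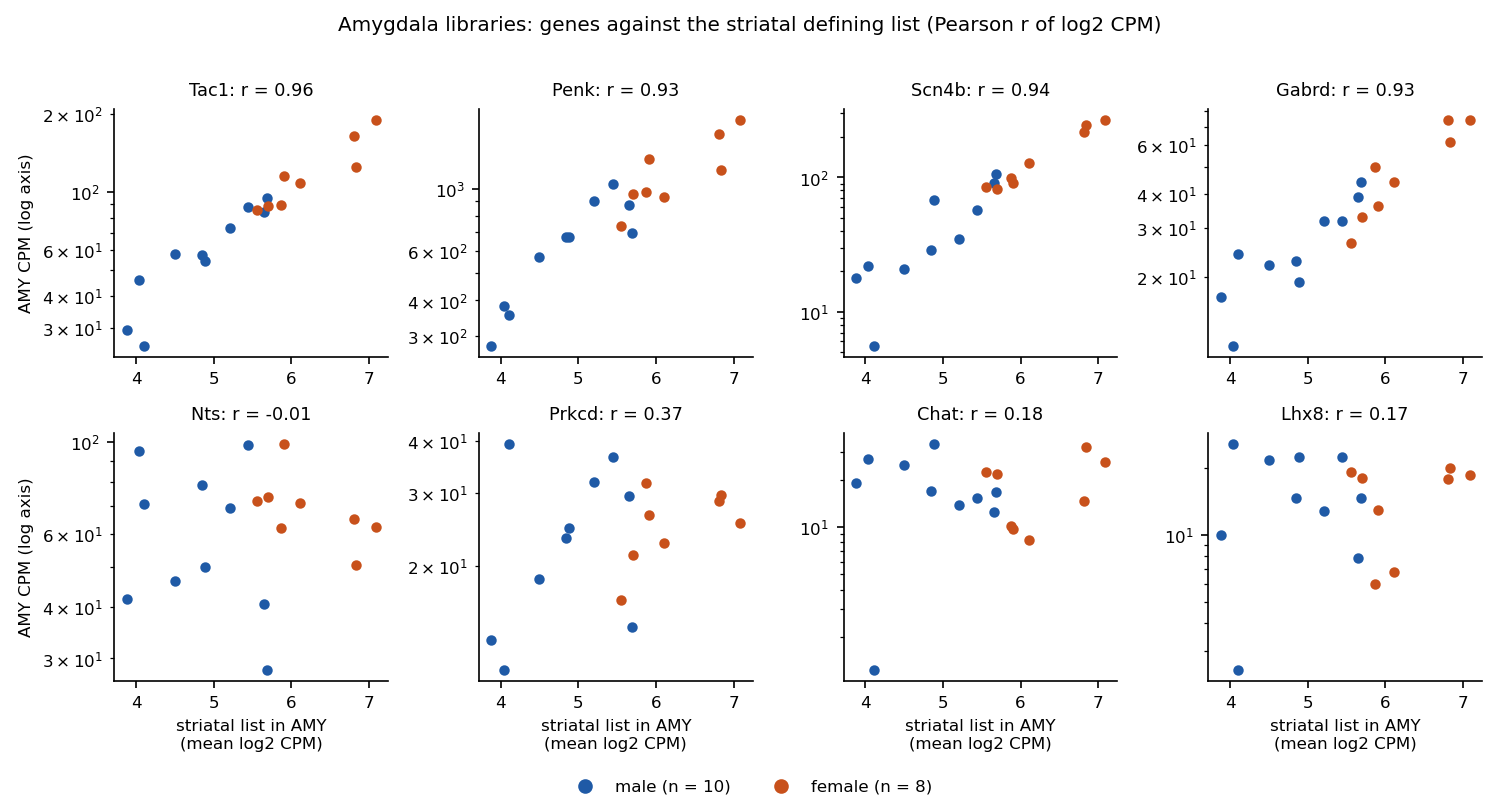
Each panel plots a gene's level in the 18 AMY libraries (CPM, log axis) against the mean log2 CPM of the 8 striatal defining genes, with males in blue and females in orange. Tac1, Penk, Scn4b and Gabrd rise with the list (r of 0.93 to 0.96), whereas Nts, Prkcd, Chat and Lhx8 show r of -0.01 to 0.37.

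Male and female amygdala punches differed in the striatal genes. Of the 12531 genes, 5 (0.0399%) had a region-by-sex term at an adjusted p under 0.05 (edgeR, mouse as block), against 760 (6.06%) at an unadjusted p under 0.05, and all 5 are striatal projection neuron genes: Adcy5, Tac1, Ppp1r1b, Drd1 and Pde10a. The difference between regions was larger in females by 0.83, 1.41, 1.501, 1.41 and 1.24 on the log2 scale, at least 1 for 4 genes (0.0319%). Ppp1r1b, which encodes DARPP-32, averaged 244 ± 117 CPM in male and 555 ± 222 CPM in female AMY (SD, n = 10 and 8), with 66.2 ± 18.4 and 55.5 ± 14.6 CPM in PFC. All 24 tested genes of the striatal projection list had a term of this sign (median 0.93), against 48.6% of all genes (median -0.0052). Members such as Tac1 and Penk varied together from punch to punch, so the 24 genes are not independent observations. The list also holds the 5 called genes. In the summed level of the 7 striatal defining genes tested in both treatments, Air males had 157 to 528 CPM and Air females 509.7 to 1400.5 CPM in AMY.

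This sex term was not stable. Fitted without the mouse as block it was called for 0 genes, and without mice 15 and 40 for 8. In the CIE mice, which are other animals of the series, the same 5 genes had terms of 0.25 to 0.58 of the same sign, each with an edgeR adjusted p of 0.969, and the female AMY libraries ran from 125 to 1657 CPM in the striatal sum, a range that held the 237 to 688 CPM of the males. Male and female mice carry separate runs of numbers, and sex, punch placement and processing set cannot be told apart. Within the Air females, ERCC spike-in reads were at most 0.0039% in both punches of mice 27, 30, 37 and 39. In mice 26, 29, 38 and 40 they were at least 0.013%. The AMY sums of the 8 striatal defining genes were 760, 613, 530 and 545 CPM in the former mice, in that order. In the latter they were 1219, 1246, 1453 and 644.5 CPM. Whether processing has a part in the sex term was not tested.

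Cholinergic and pallidal genes formed another subcortical group. All 11 tested members of the pallidal and basal forebrain list (14 genes) were called higher in AMY, with a median log2 fold change of 3.78. Genes as low in PFC as Chat and Lhx8 passed the count filter through their AMY level. Their call as higher is therefore not independent of the filter. The same holds for any listed gene near 0 CPM in PFC. Chat had 1.23, 16.8 and 33.9 CPM as its lowest, median and highest level in AMY and 0, 0.750 and 1.91 CPM in PFC (edgeR adjusted p = 3.88e-14). Slc5a7, the choline transporter, and Ngfr, the p75 neurotrophin receptor of basal forebrain cholinergic neurons, were higher by 4.36 and 3.35. The lowest AMY value of Chat, and of Lhx8, was that of mouse 15, whose AMY punch had the highest summed level of pallial factors (2601 CPM) and of excitatory neuron genes (8787 CPM) of the 18. In the hypothalamus libraries of Air mice Chat averaged 0.891 CPM and Lhx8 2.94 CPM, below the AMY means of 18.5 and 15.5 CPM on the same scale.

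Genes of cortical layers were not all lower outside the cortex. Among 23 tested, 9 were called higher and 9 lower (median 0.04). Those lower were led by Stard8 (-2.12), Cux2 (-1.67) and Fezf2, which specifies layer 5 projection neurons (-1.66). Cux2, of upper-layer neurons, had 97.7 to 194 CPM in PFC and 31.8 to 62.2 CPM in AMY, without overlap. Those higher were led by Foxp2 (1.56), Nxph4 (1.23) and Otof (0.86), genes of deep layers or of the basolateral amygdala. Hippocampal markers gave 6 higher and 1 lower of 7, with Spink8, of CA1 pyramidal cells, at 3.16 to 53.2 CPM in AMY and 0.369 to 6.08 CPM in PFC. The hippocampal sum was highest in the AMY punches of mice 10, 12 and 15 (1152, 989.8 and 834 CPM), which also had high choroid plexus sums (578, 4768 and 1357 CPM). Mouse 26, with a choroid plexus sum of 979.5 CPM, had a hippocampal sum of 634 CPM, below the AMY median of 679 CPM. The part of such punches in the hippocampal calls was not tested. Thalamic markers gave 7 higher and 1 lower of 11, with Tcf7l2 higher by 1.01, and piriform, claustrum and endopiriform markers 5 higher and 3 lower of 12, where 22.9% of all genes were called higher and 23.6% lower.

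Olfactory bulb genes varied widely among the PFC punches. The olfactory bulb list summed to 46.6 to 1513 CPM in PFC, with 1513 CPM in mouse 15, 1104 in mouse 40, 648 in mouse 37, 437 in mouse 10 and at most 294 in the others, against 120.3 to 322 CPM in AMY. Doc2g, of mitral and tufted cells, reached 421, 325 and 128 CPM in the PFC of mice 15, 40 and 37 against a PFC median of 15.1 CPM. The PFC punches of mice 40 and 15 also had the lowest sums of pallial factors (2522 and 3256 CPM) and of excitatory genes (6072 and 7741 CPM), and the highest Gad1 (994 and 562 CPM). Fitted over all mice, 2 of 7 members, Doc2g and Cdhr1, were called lower and Slc17a6, which subcortical neurons express, higher in AMY (median -0.91). In a list of 7 these shares (28.6% lower, 14.3% higher) are not far from the 23.6% and 22.9% of all genes. Without mice 15 and 40 the calls were 2 and 2 (median -0.47).

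Meningeal and choroid plexus genes differed in opposite directions. Of 9 meningeal fibroblast genes 8 were called lower in AMY (median -2.06), with sums of 365.7 to 1763 CPM in PFC and 192 to 609 CPM in AMY. Ogn and Col1a1, matrix proteins of the meninges, were lower by 2.38 and 2.18 on the log2 scale, and Slc22a6, named above for its size, is a member of this list. Of 6 choroid plexus and ependymal genes 5 were called higher in AMY. Ttr, the transthyretin made by choroid plexus, had 2.30, 73.7 and 4487 CPM as its lowest, median and highest AMY level and 2.18, 12.7 and 343 CPM in PFC (log2 fold change 2.73 ± 0.64, SE, edgeR adjusted p = 0.00131). The choroid plexus sum was 4768 CPM in mouse 12, 1357 in mouse 15, 979.5 in mouse 26 and 578 in mouse 10, and 33.1 to 346 CPM in the other AMY libraries, so a few punches carried most of it. Without mice 10, 12, 15, 26 and 38 the calls in this list were still 5 higher of 6, and 5190 genes were called in all.

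**Figure D3:**
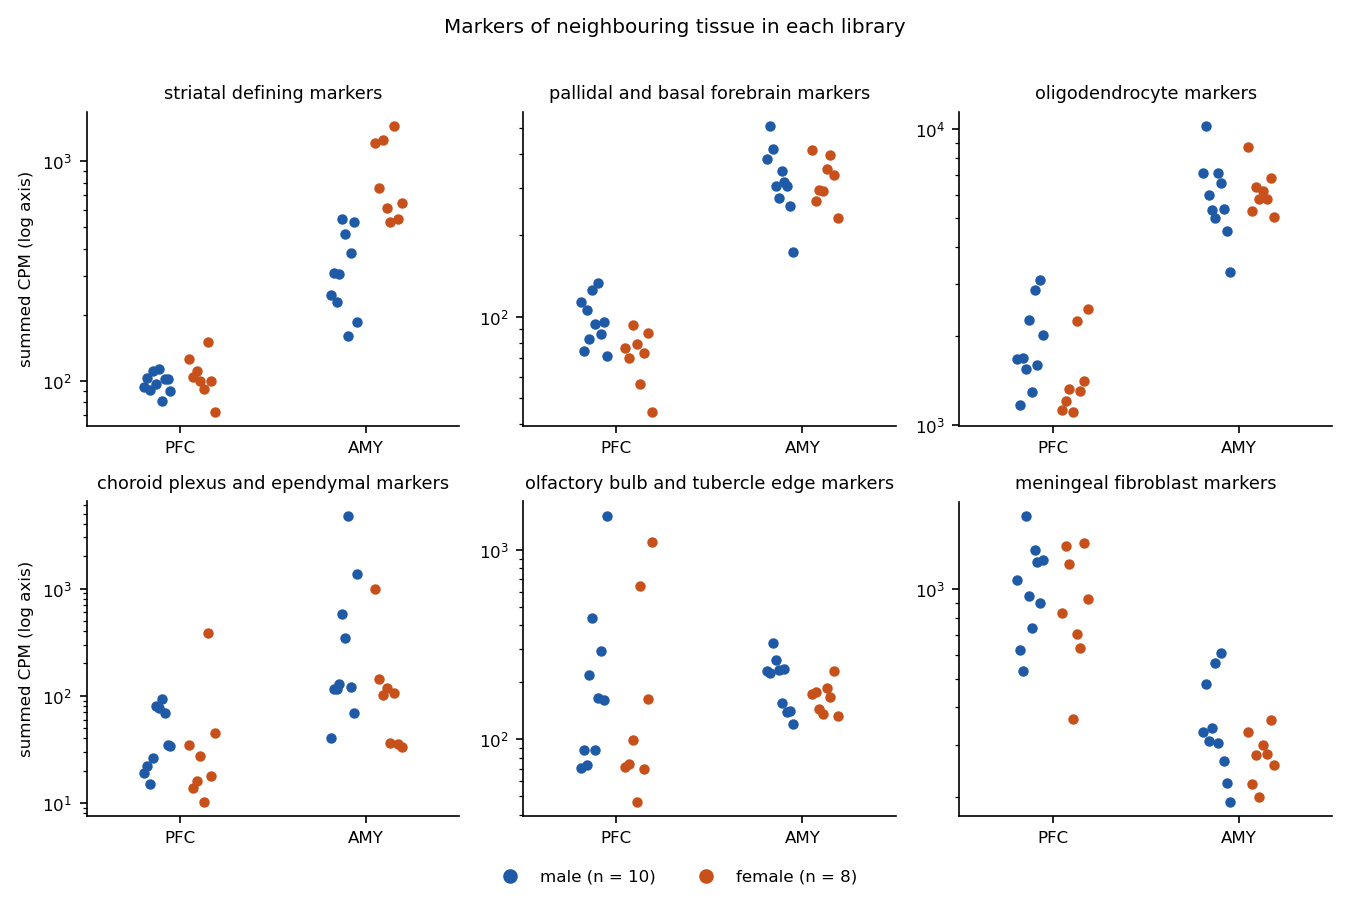
Summed CPM of 6 marker lists (log axis) in each PFC and AMY library, males in blue (n = 10) and females in orange (n = 8). Striatal, pallidal and oligodendrocyte markers separate the regions, striatal sums in AMY are lower in most males than in females, choroid plexus markers peak at 4768 CPM in 1 male AMY punch, and olfactory bulb markers exceed 1000 CPM in 2 PFC punches.

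Among the oligodendrocyte, astrocyte and microglia lists, oligodendrocyte genes had the largest median difference. All 15 oligodendrocyte genes were called higher in AMY (median 1.95), and their sum, 3299 to 10260 CPM in AMY and 1106 to 3080.2 CPM in PFC, was higher in all 18 mice. Mobp, a myelin protein, had 62.8 to 338 CPM in AMY and 14.0 to 69.4 CPM in PFC (log2 fold change 2.20). Of 14 astrocyte genes 8 were called higher and 1 lower, but the median was only 0.17 and the main glutamate transporters were not called (Slc1a2 -0.02, Slc1a3 0.00). Agt, angiotensinogen, was the exception, with 43.7, 91.7 and 209 CPM in AMY and 2.99, 15.3 and 24.9 CPM in PFC (log2 fold change 2.76 ± 0.16, SE, edgeR adjusted p = 5.73e-12) and no overlap. Of 10 microglial genes 6 were called higher in AMY, 4 were not called and none was lower, with small differences (median 0.19, Ctss 0.33 and Cx3cr1 0.27). Of 11 endothelial and mural genes 1 was called higher and 1 lower. Among all genes 22.9% were called higher and 23.6% lower.

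Of 20 hypothalamic markers only 10 were tested. Among these 6 (60%) were called higher in AMY and none lower (median 0.57), against 22.9% and 23.6% of all genes. The sum of the tested markers was higher in AMY in all 18 mice. Their mean log2 CPM was lower in AMY in mice 10 (3.67 against 3.81) and 40 (2.98 against 3.95). The mean difference by that measure was 0.65 in males and 1.33 in females. Peptides made almost solely in the hypothalamus were at low levels in both regions. Oxt, oxytocin, had a mean of 22.5 CPM in AMY and 17.7 CPM in PFC against 936.5 CPM in the hypothalamus libraries (n = 18 each), Pmch, melanin-concentrating hormone, 35.5 and 23.8 against 1103, and Hcrt, orexin, 8.91 and 6.72 against 508. None of these 3 was called between AMY and PFC. Avp, vasopressin, which some medial amygdala neurons also make, was higher in AMY in all 18 mice (log2 fold change 2.13, 14.5 and 3.10 CPM against 160.1). Red cell genes, Hbb-bs (-0.98) and Hbb-bt (-0.80), were called lower in AMY over all mice. With Alas2 included, the mean log2 difference of the red cell list was -0.66 in males and 0.0056 in females. The sum of these genes was higher in AMY in 5 of 18 mice. It was at most 80.0 CPM in both punches of mice 27, 30, 37 and 39 and in the PFC of mouse 38.

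Receptor families showed large differences in single subunits, and their counts are to be read against the 22.9% of all genes called higher and 23.6% called lower. Of 13 GABA-A receptor subunits 4 were called higher and 3 lower (median -0.04). Gabrq, the theta subunit, had 5.71 to 28.6 CPM in AMY (median 17.7) and 0.498 to 4.37 CPM in PFC (median 2.09; log2 fold change 2.92 ± 0.17, SE, edgeR adjusted p = 6.34e-12), and Gabrg1, the gamma-1 subunit, 52.6 to 120 CPM against 16.4 to 31.6 CPM (1.80). Neither overlapped. Gabrd was lower in AMY (-0.93), most in the males (-1.31 against -0.48 in females, not called as a sex term), and it was also the subunit that rose with the striatal list. Among 24 glutamate receptor genes 4 were called higher and 9 lower, with Grm2, a presynaptic metabotropic receptor, at 34.6 to 62.8 CPM in PFC and 5.37 to 26.5 CPM in AMY (-1.63), and Grin3a higher (0.67). Of 27 monoamine, acetylcholine and cannabinoid receptors 11 were called higher and 9 lower. Serotonin receptors Htr1d (3.17), Htr4 (2.10) and Htr2c (2.03) were higher in AMY, and Adra1b, an alpha-1 adrenoceptor (-1.56), and Chrm3, a muscarinic receptor (-1.02), were lower.

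Immediate early genes, which neurons switch on within minutes of activity, were lower in AMY as a group. Of 12 tested 11 were called lower (91.7%) and none higher (median -1.21), against 23.6% and 22.9% of all genes. Npas4, a neuron-specific activity-dependent factor, had 1.94, 9.62 and 20.2 CPM in AMY and 13.0, 39.1 and 129.7 CPM in PFC (log2 fold change -2.17 ± 0.14, SE, edgeR adjusted p = 1.49e-11). Arc, a synaptic plasticity protein, had 15.5 to 45.9 CPM against 30.9 to 222 CPM (-1.78). Both were lower in AMY in all 18 mice, with overlapping ranges. Egr1 belongs both to this list and to the excitatory neuron genes.

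**Figure D4:**
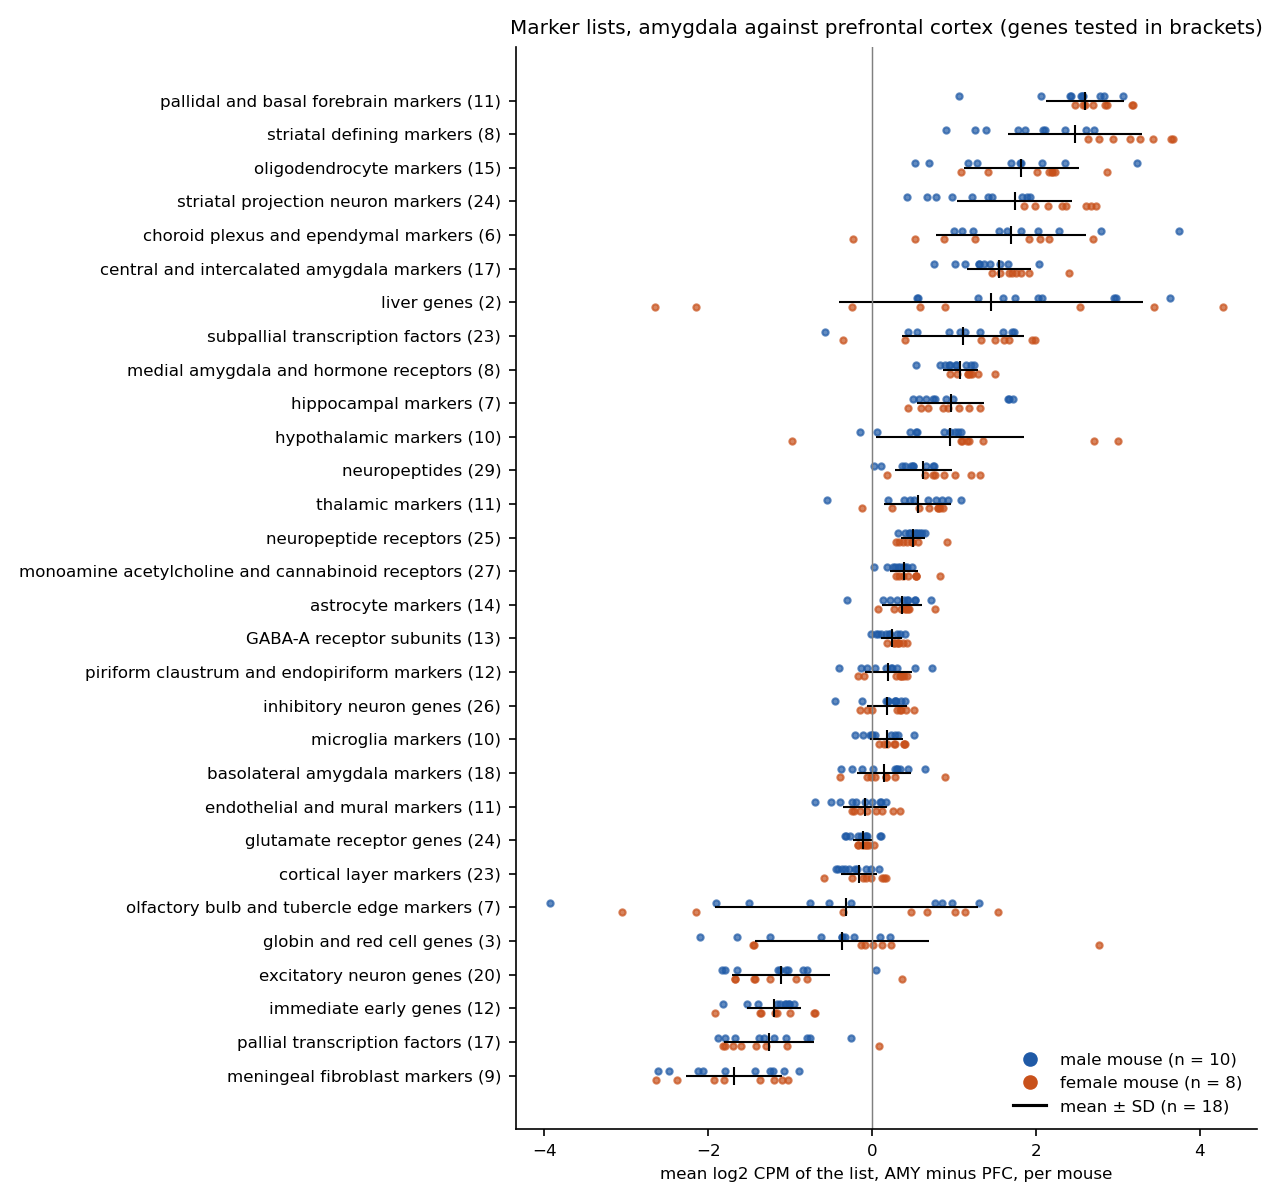
For each marker list, the AMY minus PFC difference in the mean log2 CPM of its tested genes in each mouse (males blue, n = 10, females orange, n = 8), with the mean and SD over 18 mice as a bar. Pallidal, striatal and oligodendrocyte lists lie to the right of 0 in every mouse and meningeal and immediate early genes to the left in every mouse, while excitatory genes lie just above 0 in 1 male and 1 female, and pallial factors in 1 female.

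The CIE mice allowed the regional calls to be seen in other animals. In 18 CIE mice with both punches 5208 genes (41.6%) were called between AMY and PFC, 342 (2.73%) of them at least 2-fold higher and 238 (1.9%) at least 2-fold lower. Of the genes tested in both, 4346 were called in the same direction, 75.3% of the Air calls and 84.0% of the CIE calls. At 2-fold or more the shared calls numbered 510, 81.1% of the Air calls and 89.6% of the CIE calls, and all 629 Air calls at this size had the same sign in CIE mice. Six3 (4.78), Nts (4.95) and Ovol2 (-3.60) had log2 fold changes near those in Air mice. The region-by-treatment term was called for 0 of 12577 genes (0%) by edgeR, limma voom and DESeq2, with 609 (4.84%) at an unadjusted p under 0.05, and a p above the threshold does not show that the differences were equal.

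**Figure D5:**
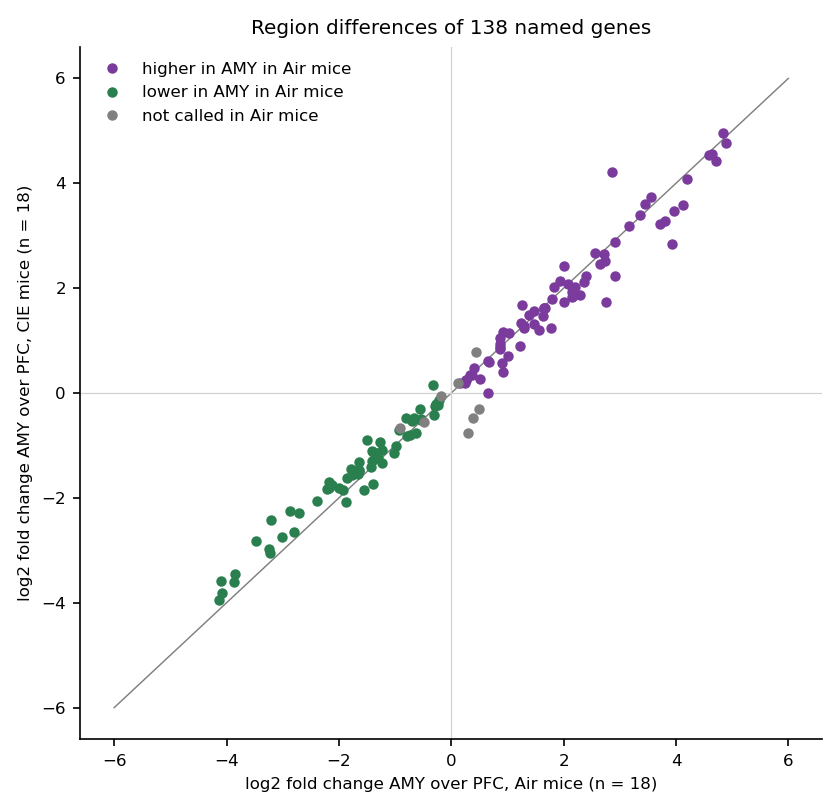
Log2 fold change of AMY over PFC in 18 Air mice (x axis) and 18 CIE mice (y axis) for 138 named genes with a value in both, colored by the call in Air mice, with the line of equal values in grey. Of the 130 called in Air mice, 128 have the same sign in CIE mice.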

How the data were processed

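RNA from amygdala and prefrontal cortex punches of Air mice was sequenced as single-end 3′ tags. Per the labels, the authors aligned reads with Bowtie2, handled them with SAMtools and counted reads per gene with HTSeq on GRCm38 (mm10), and also list limma 3.42.2. For the other tools no version is known here, nor the annotation or the strand setting of the counting (not given in the sources used here). The deposited values are raw counts per Ensembl gene, not normalized. Of 55385 gene IDs, 54487 matched GENCODE M21 with their version and 657 without it. Summary rows that name no gene (27.58 to 31.05% of each column) and 92 ERCC spike-in rows were kept out of library sizes and tests.

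Genes passing filterByExpr (minimum count 10, total 15) were fitted with edgeR 4.0.16 (R 4.3.3), TMM factors, the quasi-likelihood test, mouse as block, and Benjamini-Hochberg adjustment over all genes at 0.05. The same mouse gave both punches, which is where the pairing comes from. Deviations of its libraries correlated at -0.218 to 0.28 (median 0.0973), over 0.1 in 9 of 18 mice. CPM values use TMM library sizes, and list means a prior count of 2. The fit was tested on simulated data from the 12531 genes of this comparison, where 60% of genes changed 1.25-fold, 94% at 1.5-fold, 100% at 2-fold and 98% at 3-fold were recovered (50 genes each) with 6 false calls. The changed genes were a far smaller share there than the 46.5% called in the data. The 6 false calls therefore do not give the number to be met in the data. Promoters came from RefSeq, which held 18 of the 24 genes named for size and 21 of 29 tested genes of the neuropeptide list. No libraries were identical, and none agreed within counting noise.

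Named genes were, in each direction, the 12 with the largest change among those called, with a mean of at least 10 CPM in the higher region and the same direction in every pair, up to 3 called members per direction of each list, all tested striatal defining, neuropeptide and central amygdala members, and 5 transmitter genes. Tbr1, Slc1a2 and any other member given outside this rule, were picked with their values in view. The members and lists were chosen with earlier results of these data known. Alternatives were other scaling, filters, prior counts, limma 3.58.1 voom, DESeq2 1.42.0, no block, each sex alone and mice left out. The PFC library of mouse 28, which has no AMY partner here, entered only an alternative, and blood libraries were not used here. Some genes are not reported here. P-values measure the spread between mice, each of which gave 1 punch per region.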

Additional observations from a re-analysis of the deposited data

Results flagged for a closer look

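In 18 of 118 groups of mice examined, the AMY minus PFC difference (log2) of 1 mouse lay far from the rest of its sex, a gap that the rule gives by chance in about 1 in 20 groups. The groups share mice and genes, so their number cannot be set against that rate. Female mouse 40 had a high sum of the olfactory bulb list in its PFC punch, and a link to its gaps was not tested. It was apart for pallial factors (0.082, others -1.821 to -1.037), excitatory genes (0.365, others -1.674 to -0.792), monoamine, acetylcholine and cannabinoid receptors (0.833, others 0.295 to 0.537), Trbc2 (-1.702, others -4.698 to -3.525), Slc32a1 (-0.071, others 1.461 to 2.492) and Gad2 (0.272, others 1.455 to 2.386). Male mouse 15, whose PFC punch had the highest such sum, was apart for Gad1 (-1.169, others 0.242 to 1.583), and, with its AMY level the lowest, for the pallidal list (1.066, others 2.070 to 3.065), Lhx8 (1.489, others 3.106 to 4.821), Slc10a4 (0.676, others 2.870 to 5.024) and Chat (0.804, others 2.703 to 4.459).

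Among the other mice, female 30 was apart for the central amygdala list (2.404, others 1.471 to 1.912) and neuropeptide receptors (0.914, others 0.299 to 0.561), female 38 for red cell genes (2.775, others -1.451 to 0.235), and female 39 for Slc17a6 (3.070, others 1.371 to 2.040). Male 10 was apart for Ecel1 (5.557, others 3.248 to 3.896) and Arhgap36 (0.914, others 2.414 to 3.650), and male 12 for Drd2 (0.431, others 2.275 to 3.961).

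The region difference of 5 genes differed between the sexes by the edgeR region-by-sex term, larger in females by 0.828 for Adcy5, 1.411 for Tac1, 1.501 for Ppp1r1b, 1.405 for Drd1 and 1.238 for Pde10a on the log2 scale.

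ERCC spike-in sequences, which entered no comparison, took 0.771 to 1.305% of reads in 8 of 37 libraries (4 AMY and 4 PFC) and at most 0.0581% in the other 29. Among the latter, both punches of mice 27, 30, 37 and 39 had 0.00016 to 0.0039%, and the rest had at least 0.0108%. The same mice had low red cell sums in both punches.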

How the results depend on the processing

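The pairing moved the count of region calls little: without the replicate block 5874 genes were called against 5832 with it. With upper-quartile, RLE or library-size scaling, voom, DESeq2 or stricter and absent count filters the count ran from 5129 to 6341, and leaving out each mouse in turn gave 5552 to 6095 calls, 2660 to 3043 of them higher and 2808 to 3052 lower, with 355 to 403 and 281 to 320 at 2-fold or more. Males alone gave 4444 calls, females alone 3088 (1558 higher and 1530 lower). Without a filter on low counts 799 genes were at least 2-fold higher and 748 at least 2-fold lower, among 30301 tested. Of 143 named genes 117 kept the same call in all settings and 140 the same sign. The 3 that changed sign were called in none of these settings: Tshz1 without the replicate block (-0.0338) and with the unpaired library included (-0.0351), Oxt in males alone (-0.21) and Npy in females alone (0.18). The region-by-sex count of 5 became 187 without a filter, 12 with DESeq2, 0 without the replicate block and 8 without mice 15 and 40. In CIE mice its count of 1 became 0 without the replicate block and 0 with voom. The region-by-treatment count of 0 became 4 without a filter. With a prior count of 0.5 the mean difference of the pallidal list was 3.13. Genes related to the striatal list numbered 11, 2 within males and 4 within females, and lists 2, against 1 without the 2 farthest mice, 1 within males and 1 within females. The cause of these changes was not tested, apart from the fewer mice. Sequencing depth of 1578896 to 3861281 reads limits genes near 1 CPM to a few reads per library, so levels of 0 in PFC mean not detected.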
